A study of Homo sapiens with 4 samples.

Results

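The 10 genes described here encode the proteins that make microRNAs and load them for use: the nuclear microprocessor (DROSHA, DGCR8), the export receptor of microRNA precursors (XPO5), the cytoplasmic cleavage enzyme and its double-stranded RNA-binding partners (DICER1, TARBP2, PRKRA), and the Argonaute proteins (AGO1, AGO2, AGO3, AGO4). They were chosen by function, with earlier results of these data known, and are 10 of the 58735 genes counted. All 10 were protein coding and passed the filter on low counts, which kept 15912 genes. The question was how their mRNA levels differed in A549 cells, an established human lung adenocarcinoma line labelled as alveolar basal epithelial cells, after knockdown of RALY, which encodes an hnRNP that binds RNA. The shRALY group held 2 libraries of cells infected with a lentivirus for a short hairpin RNA against RALY, with the genotype labelled RALY knockdown. The shControl group held 2 libraries of cells infected with a control hairpin lentivirus, with the genotype labelled WT. Both groups were taken at day 2 in the same medium, and both therefore carry a lentiviral infection. The labels name no hairpin sequence and do not say whether the 2 libraries of a group came from separate cultures. A p-value here only sets the group difference against the spread between these libraries, estimated in part over all tested genes. That spread may be technical.

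Total counts were 16745818 to 18632787 per library. RALY itself averaged 41.2 ± 0.47 CPM (counts relative to the library's total after TMM scaling) in shRALY cells and 128 ± 7.15 CPM in shControl cells (SD, n = 2 each), a log2 fold change of -1.64 (SE 0.11, adjusted p = 5.85e-11, edgeR's quasi-likelihood test with Benjamini-Hochberg adjustment). Across all tested genes, 41.0% passed an adjusted p of 0.05 in either direction, 20.6% being higher and 20.4% lower in shRALY cells, and 69.7% had groups that did not overlap in CPM. Mitochondrial genes took 8.66 and 8.88% of counts in shRALY cells, against 6.99 and 7.67% in shControl cells, and their part in the results was not tested. Of 14 markers of A549 cells and airway or alveolar epithelium, 8 passed the filter, and the list summed to 15338 and 15499 CPM in shRALY cells, against 14736 and 15235 CPM in shControl cells. Most of that sum was ALDH1A1, KRT8, AKR1B10 and KRT18, which did not pass the test, while KRT19 (311 CPM in shRALY cells and 95.4 CPM in shControl cells) and CDH1 (32.1 and 23.2 CPM) rose and AKR1C1 (653 and 963 CPM) fell (edgeR adjusted p = 1.35e-11, 0.0191 and 6.77e-05 in that order). The alveolar markers NKX2-1, SFTPA1, SFTPB, SFTPC, AQP5 and HOPX stood at or near 0 counts in all 4 libraries, so the labelled alveolar identity was not visible in these markers. The 5 basal markers summed to 6.2 and 6.3 CPM in shRALY cells, against 4.69 and 5.05 CPM in shControl cells. Of these, KRT5 and KRT14 had 0 to 6 counts per library, TP63 fell (25 and 26 counts in shRALY cells, against 60 and 56 in shControl cells), and KRT15 (69 and 60 counts, against 21 and 24) and NGFR (19 and 11 counts, against 2 and 6) rose (edgeR adjusted p = 0.00726, 0.000823 and 0.0433 in that order). The part of these marker changes in the results was not tested. Markers of immune cells summed to 5.87 to 8.81 CPM and those of fibroblasts and endothelium to 15.9 to 22.2 CPM over the 4 libraries. In bulk RNA, fewer cells with a transcript and less of it per cell cannot be told apart.

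In the microRNA pathway, the primary transcript is cut in the nucleus by the microprocessor, in which the ribonuclease DROSHA acts with the RNA-binding protein DGCR8. The released hairpin is carried to the cytoplasm by exportin 5, encoded by XPO5, and DICER1 removes its loop with the help of the partners encoded by TARBP2 and PRKRA. A strand of the resulting duplex is loaded into an Argonaute protein, which finds target mRNA by pairing through the microRNA seed and recruits the proteins that repress and degrade the target. AGO2 is the human Argonaute best known for cutting a fully paired target. DGCR8 and DROSHA are also known to regulate each other, since the microprocessor cuts a hairpin in the DGCR8 mRNA and DGCR8 protein stabilises DROSHA.

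The annotated microRNA hairpins inside these genes are shown because those of DGCR8 lie in its mature mRNA. MIR3618 (chr22:20085746-20085833, plus strand) and MIR1306 (chr22:20086058-20086142, plus strand) lie within exons of DGCR8 on GRCh38, MIR1306 wholly in coding sequence and MIR3618 wholly outside it. MIR3173 (chr14:95137919-95137986, minus strand) lies in an intron of DICER1. The mature sequences, from RefSeq on GRCh38.p14, are given 5′ to 3′ with the seed (bases 2 to 8) in capitals, and the 5 seeds are all different.
hsa-miR-3618: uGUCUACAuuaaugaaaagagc
hsa-miR-1306-5p: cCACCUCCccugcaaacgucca
hsa-miR-1306-3p: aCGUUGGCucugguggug
hsa-miR-3173-5p: uGCCCUGCcuguuuucuccuuu
hsa-miR-3173-3p: aAAGGAGGaaauaggcaggcca
MIR3618 and MIR1306 were listed at 0 counts in every library, and MIR3173 had 0 and 0 counts in shRALY cells, against 0 and 1 in shControl cells. Libraries of polyadenylated RNA selected for long fragments are not made to hold mature microRNAs, so these values say nothing of their levels, which were not measured.

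Of the 10 genes, 5 fell in shRALY cells (DROSHA, DGCR8, XPO5, AGO1, AGO2), 2 rose (DICER1, AGO4) and 3 did not pass the test (TARBP2, PRKRA, AGO3). The 7 that passed are 70.0% of the 10, beside 41.0% of all tested genes. Among the 10017 genes with at least 10 CPM in 2 libraries, which include all 10, 2712 were higher and 2637 lower. The median log2 fold change of the 10 was -0.29, with a range of -0.94 to 0.69, beside a median of -0.01 over all tested genes. In all 10 the shRALY libraries did not overlap the shControl libraries, beside 69.7% of tested genes. Both microprocessor genes and the exporter fell, DICER1 rose while its partners did not pass, and the Argonaute genes moved in both directions.

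**Figure D1:**
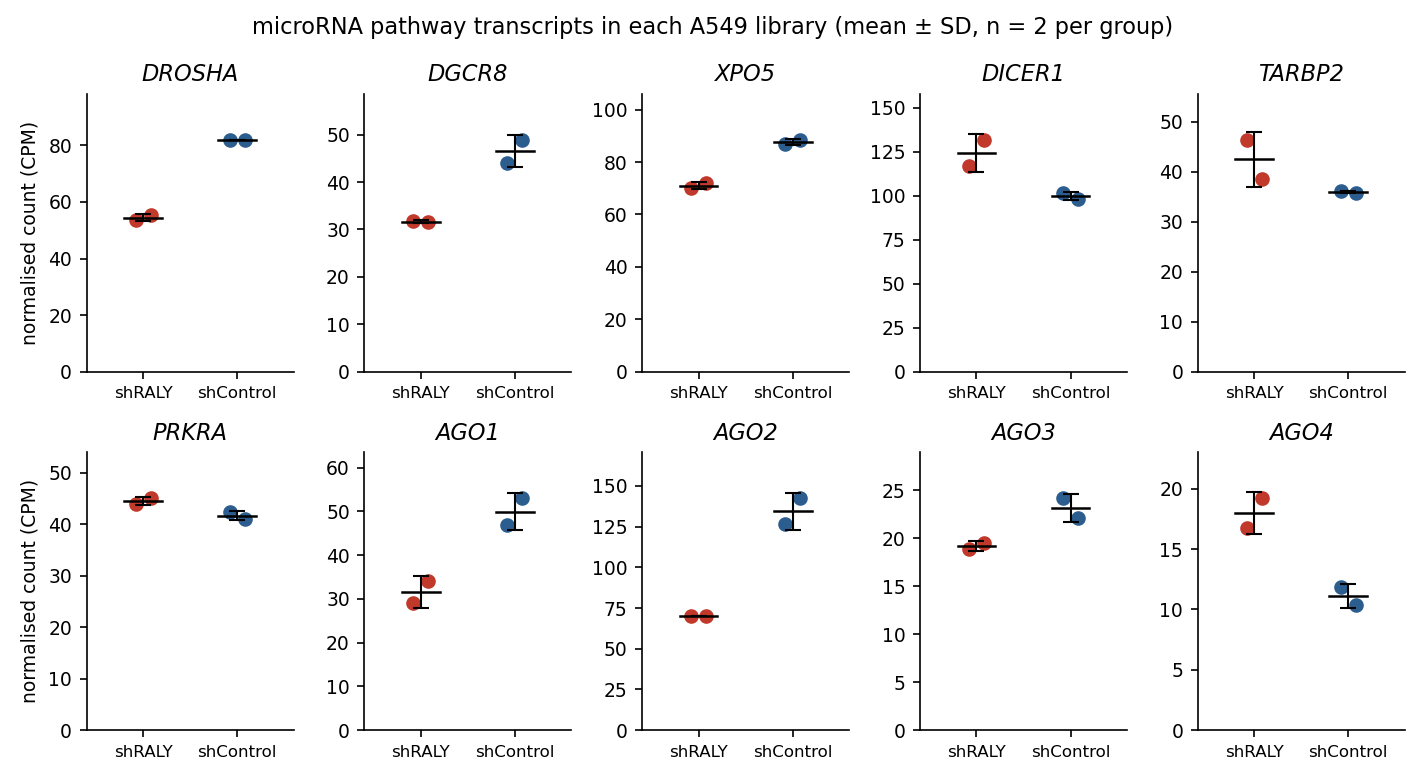
Expression of the 10 genes in each library in CPM, with shRALY libraries left of shControl libraries, points for single libraries and bars for the mean ± SD (n = 2). AGO2 lay at 70.1 and 69.9 CPM in shRALY cells, against 126 and 142 CPM in shControl cells, and AGO4 lay at 16.8 and 19.2 CPM, against 11.8 and 10.4 CPM.

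DROSHA, the nuclease of the microprocessor (ENSG00000113360, chr5:31400497-31532196, minus strand, GRCh38), had 53.7 and 55.3 CPM in shRALY cells, against 82.0 and 81.9 CPM in shControl cells. Libraries of a group lay close together, and both shRALY libraries were lower than both shControl libraries. The log2 fold change was -0.59 (SE 0.11, 95% interval -0.82 to -0.36, adjusted p = 0.000179, edgeR's quasi-likelihood test with Benjamini-Hochberg adjustment), or 1.5-fold lower, and 16.5% of tested genes had a lower log2 fold change. DGCR8, its RNA-binding partner (ENSG00000128191, chr22:20080232-20111877, plus strand), had 31.8 and 31.5 CPM in shRALY cells, against 44.1 and 48.9 CPM in shControl cells. The shRALY libraries were again the lower pair, with a log2 fold change of -0.55 (SE 0.12, 95% interval -0.81 to -0.30, edgeR adjusted p = 0.00098), or 1.47-fold lower. An antisense gene, AC006547.2, covers 7.19% of the exonic bases of DGCR8, and with no strand setting given its reads cannot be told from those of DGCR8. The ratio of DGCR8 to DROSHA in RPKM (CPM per kilobase of exon) was 0.630 and 0.606 in shRALY cells, against 0.572 and 0.635 in shControl cells. These ranges overlapped, so a difference in the balance of the pair was not detectable with 2 libraries a group.

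XPO5, the export receptor of hairpin precursors (ENSG00000124571, chr6:43522330-43576075, minus strand), had 70.0 and 71.8 CPM in shRALY cells, against 86.8 and 88.5 CPM in shControl cells. The groups did not overlap, and the fall was smaller than that of the microprocessor genes, at a log2 fold change of -0.31 (SE 0.11, 95% interval -0.53 to -0.08, edgeR adjusted p = 0.0294), or 1.24-fold lower. Without shRALY replicate 1 the log2 fold change was -0.28, and without shRALY replicate 2 it was -0.31, near the value with all libraries. It did not pass in either fit, where the spread came from the shControl pair alone. The ratio of XPO5 to DROSHA in RPKM was 1.19 in both shRALY libraries, against 0.967 and 0.986 in shControl cells (exact permutation p = 0.333, two-sided, the smallest that 2 against 2 libraries can give). The protein-coding gene POLR1C, on the opposite strand, covers 4.08% of the exonic bases of XPO5. With no strand setting given, its reads there cannot be told from those of XPO5.

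DICER1, which cuts the precursor into the microRNA duplex (ENSG00000100697, chr14:95086228-95158010, minus strand), had 117 and 132 CPM in shRALY cells, against 101 and 98.2 CPM in shControl cells. Here the shRALY libraries were higher and also further apart than the shControl libraries. The log2 fold change was 0.32 (SE 0.11, 95% interval 0.09 to 0.54, edgeR adjusted p = 0.025), or 1.24-fold higher. Scaling by library size alone gave 0.26 with an edgeR adjusted p of 0.0601. Without shRALY replicate 1 it was 0.41 with an edgeR adjusted p of 0.106, and without shRALY replicate 2 it was 0.24 with an edgeR adjusted p of 0.408. The direction held in each of these and the call did not. TARBP2, a partner that stabilises DICER1 and helps it hand the duplex to Argonaute (ENSG00000139546, chr12:53500921-53506431, plus strand), had 46.4 and 38.6 CPM in shRALY cells, against 36.1 and 35.8 CPM in shControl cells. Replicate 1 of shRALY stood above the other 3 libraries, and the log2 fold change of 0.24 (95% interval -0.02 to 0.51, edgeR adjusted p = 0.135) did not pass. PRKRA, which encodes the partner PACT and is also known as an activator of the kinase PKR (ENSG00000180228, chr2:178431414-178451512, minus strand), had 44.0 and 45.1 CPM in shRALY cells, against 42.3 and 41.0 CPM in shControl cells. The libraries of both groups lay close together, and the log2 fold change of 0.09 (95% interval -0.15 to 0.34, edgeR adjusted p = 0.566) did not pass.

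Set against each other, the nuclear and the cytoplasmic enzyme stood in the opposite order in the 2 groups. The ratio of DICER1 to DROSHA in RPKM was 1.38 and 1.51 in shRALY cells, against 0.783 and 0.758 in shControl cells, a 1.87-fold difference. The 4 ratios did not overlap between groups (exact permutation p = 0.333, two-sided, the smallest possible). This follows from DICER1 being higher and DROSHA lower without overlap, and is no separate result. The ratio of TARBP2 to PRKRA was 1.02 and 0.826 in shRALY cells, against 0.822 and 0.840 in shControl cells, and these ranges overlapped.

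**Figure D2:**
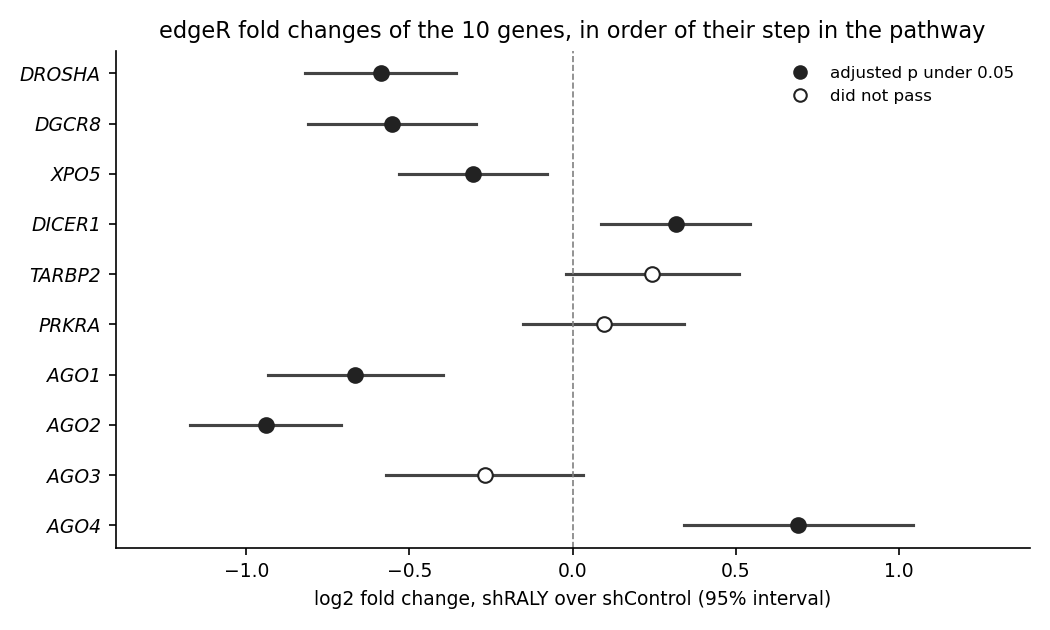
The log2 fold change of each gene, shRALY over shControl, with its 95% interval from edgeR, in the order of the steps of the pathway; filled points passed an adjusted p of 0.05. DROSHA, DGCR8 and XPO5 lie below 0, DICER1 lies above it, and the Argonaute genes range from -0.94 for AGO2 to 0.69 for AGO4.

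AGO2, the Argonaute with slicing activity (ENSG00000123908, chr8:140520156-140635619, minus strand), showed the largest difference of the 10 genes. It had 70.1 and 69.9 CPM in shRALY cells, against 126 and 142 CPM in shControl cells. The shRALY libraries were nearly equal and stood at 52.1% of the shControl mean. The log2 fold change was -0.94 (SE 0.11, 95% interval -1.17 to -0.71, adjusted p = 4.01e-07, edgeR's quasi-likelihood test with Benjamini-Hochberg adjustment), and 8.55% of tested genes had a lower one. AGO1, a close paralog that binds guides and silencing partners but cuts poorly (ENSG00000092847, chr1:35869808-35930528, plus strand), had 28.9 and 34.1 CPM in shRALY cells, against 46.9 and 53.0 CPM in shControl cells. Both shRALY libraries were lower, at a log2 fold change of -0.67 (SE 0.13, 95% interval -0.93 to -0.40, edgeR adjusted p = 0.000228), or 1.59-fold lower.

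AGO3, which keeps the catalytic residues of AGO2 (ENSG00000126070, chr1:35930718-36072500, plus strand) had 18.9 and 19.6 CPM in shRALY cells, against 24.2 and 22.1 CPM in shControl cells. Both shRALY libraries were below both shControl libraries, but the log2 fold change of -0.27 (95% interval -0.57 to 0.03, edgeR adjusted p = 0.149) did not pass. AGO4, whose catalytic residues differ from those of AGO2 (ENSG00000134698, chr1:35808172-35857890, plus strand), had 16.8 and 19.2 CPM in shRALY cells, against 11.8 and 10.4 CPM in shControl cells. It was the Argonaute gene that rose, with a log2 fold change of 0.69 (SE 0.17, 95% interval 0.34 to 1.04, edgeR adjusted p = 0.00219), or 1.61-fold higher. Its counts were the lowest of the 10 genes, at 308 and 314 in shRALY cells, against 212 and 177 in shControl cells. Without shRALY replicate 2 its log2 fold change was 0.60 with an edgeR adjusted p of 0.0601. Reads that could be shared between paralogs were few: at most 1.21% of the 50-base words of any of the 10 longest transcripts, the value of AGO3, recur in the longest transcript of any other gene.

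The shares of the Argonaute mRNA pool differed between groups as well as its size. Summed over the 4 genes, Argonaute RPKM was 9.71 and 10.4 in shRALY cells, against 14.1 and 15.3 in shControl cells, so the shRALY mean was 68.5% of the shControl mean. AGO2 made up 45.6 and 42.3% of that sum in shRALY cells, against 56.5 and 58.8% in shControl cells. AGO4 made up 23.7 and 25.3% in shRALY cells, against 11.5 and 9.36% in shControl cells. AGO2 thus held the largest share in every library. AGO4 ranked second in both shRALY libraries and AGO1 in both shControl libraries: AGO1 made up 21.5 and 23.5% in shRALY cells, against 23.9 and 25.0% in shControl cells, and AGO3 made up 9.19 and 8.86%, against 8.09 and 6.85%. The ratio of AGO4 to AGO2 in RPKM was 0.521 and 0.599 in shRALY cells, against 0.204 and 0.159 in shControl cells, a 3.10-fold difference. None of these sums, shares or ratios overlapped between groups, and each has an exact permutation p of 0.333, two-sided, the smallest that this design allows. For the ratio of AGO4 to AGO2, the lack of overlap follows from that of the genes themselves, which moved in opposite directions. With the longest transcript in place of the union of exons as the length, AGO4 made up 23.0 and 24.6% in shRALY cells, against 11.1 and 9.01% in shControl cells.

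**Figure D3:**
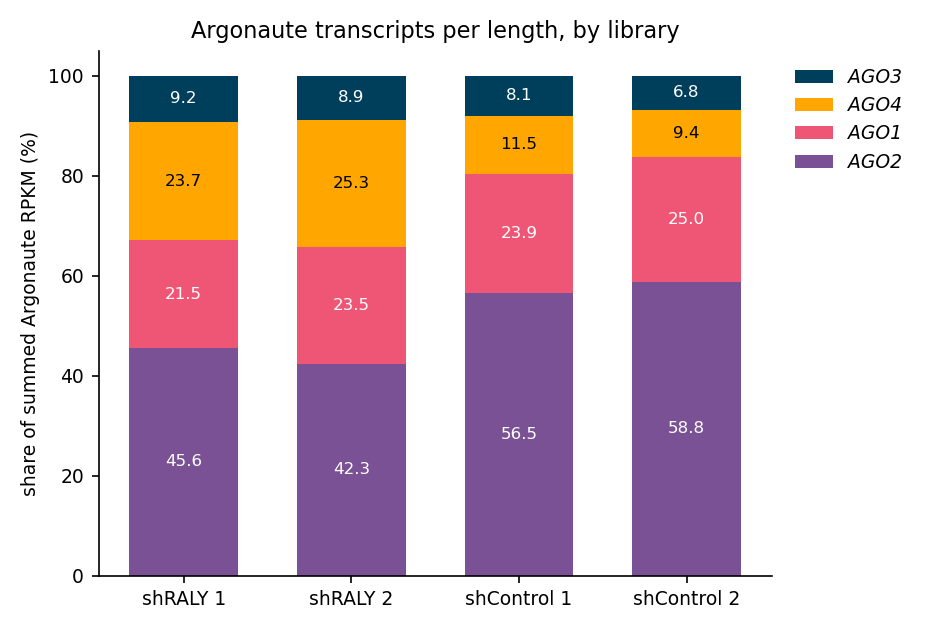
Share of each Argonaute gene in the summed RPKM of the 4 genes, in percent, for each library, with shRALY libraries left of shControl libraries. The AGO4 share was 23.7 and 25.3% in shRALY cells, against 11.5 and 9.36% in shControl cells, and the AGO2 share was 45.6 and 42.3%, against 56.5 and 58.8%.

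AGO4, AGO1 and AGO3 lie next to each other on chromosome 1 in that order, all on the plus strand, with 11917 bases between AGO4 and AGO1 and 189 bases between AGO1 and AGO3. The neighbours did not move together: AGO4 was higher in shRALY cells, AGO1 was lower, and AGO3 did not pass. The promoter windows of these neighbours are shown for that contrast, with those of DROSHA and DGCR8 as the pair of partners that were both lower. Each window runs from 250 bases before to 50 bases after the RefSeq start on GRCh38.p14 and is given 5′ to 3′ on the gene's strand. Capitals mark matches on either strand to the CCAAT box (CCAAT) and the GC box (GGGCGG). The windows are AGO4 at chr1:35807766-35808065, AGO1 at chr1:35882959-35883258 and AGO3 at chr1:35930855-35931154, all plus strand, DROSHA at chr5:31532044-31532343, minus strand, and DGCR8 at chr22:20079991-20080290, plus strand.
AGO4: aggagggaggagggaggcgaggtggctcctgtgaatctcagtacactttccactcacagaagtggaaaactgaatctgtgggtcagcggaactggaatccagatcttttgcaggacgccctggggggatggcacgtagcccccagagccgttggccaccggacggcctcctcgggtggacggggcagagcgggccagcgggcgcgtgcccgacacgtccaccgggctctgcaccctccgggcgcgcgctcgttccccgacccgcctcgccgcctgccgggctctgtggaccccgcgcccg
AGO1: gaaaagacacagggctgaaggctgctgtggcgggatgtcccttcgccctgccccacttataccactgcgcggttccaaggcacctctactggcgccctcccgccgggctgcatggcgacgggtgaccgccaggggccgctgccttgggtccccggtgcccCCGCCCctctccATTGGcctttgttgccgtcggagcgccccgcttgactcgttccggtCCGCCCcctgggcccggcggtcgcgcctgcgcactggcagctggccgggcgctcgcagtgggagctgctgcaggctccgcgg
AGO3: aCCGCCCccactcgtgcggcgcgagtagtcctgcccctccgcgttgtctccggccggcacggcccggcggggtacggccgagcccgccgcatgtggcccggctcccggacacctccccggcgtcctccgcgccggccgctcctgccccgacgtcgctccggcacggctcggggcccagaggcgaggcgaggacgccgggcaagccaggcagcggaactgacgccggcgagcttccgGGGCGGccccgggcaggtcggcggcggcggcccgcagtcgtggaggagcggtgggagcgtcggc
DROSHA: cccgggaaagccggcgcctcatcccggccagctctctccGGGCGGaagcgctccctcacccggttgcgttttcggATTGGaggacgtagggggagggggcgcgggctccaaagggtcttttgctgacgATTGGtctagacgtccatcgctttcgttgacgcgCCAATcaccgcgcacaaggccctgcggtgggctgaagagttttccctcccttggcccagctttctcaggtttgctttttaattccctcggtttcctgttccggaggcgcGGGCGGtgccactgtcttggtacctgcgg
DGCR8: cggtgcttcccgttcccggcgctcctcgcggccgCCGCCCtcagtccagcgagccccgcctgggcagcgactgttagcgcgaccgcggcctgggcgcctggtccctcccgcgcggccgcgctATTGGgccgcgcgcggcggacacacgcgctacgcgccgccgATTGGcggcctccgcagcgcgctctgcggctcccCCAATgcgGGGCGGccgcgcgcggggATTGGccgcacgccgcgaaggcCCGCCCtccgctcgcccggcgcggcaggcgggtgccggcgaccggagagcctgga
The AGO1 and AGO3 windows start inside these genes as annotated in GENCODE 29, and the AGO4 window ends upstream of the GENCODE 29 start. For AGO1 the window is far from the GENCODE 29 start at 35869808, and for AGO3 it is close to the start at 35930718. The spacing of the genes given above uses the GENCODE 29 starts, so the AGO1 window is not at the start used there.

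Of the 10 genes, 9 matched the RefSeq promoter table, with 17 windows among the 35116 it holds, and AGO2 was not among them. All 5 windows shown were richer in G and C than the median window, at 69.0% for AGO4, 72.3% for AGO1, 80.0% for AGO3, 63.0% for DROSHA and 80.3% for DGCR8, against 58.7%. The DGCR8 window held 4 CCAAT boxes and 3 GC boxes, and the DROSHA window held 3 CCAAT boxes and 2 GC boxes. Among the windows not shown, 1 of the 3 for TARBP2, which did not pass the test, also held 3 CCAAT boxes, and the window of XPO5, which fell, held none and 2 GC boxes. A CCAAT box was present in 34.6% of all windows, at least 3 of them in 3.26%, and a GC box in 45.0%. AGO1 held 1 CCAAT box and 2 GC boxes, and AGO3 held 2 GC boxes. AGO4 held no match to either, nor to the other motifs searched on both strands, which were the interferon-response type AAANNGAAA and the E2F types TTTCCCGC and TTTGGCGC, and 29.4% of all windows likewise held no match. Of the 9 genes with a window, only DICER1 had a match to AAANNGAAA, in 1 of its 5 windows, which lies inside the gene. That motif was present in 10.5% of all windows, TTTCCCGC in 1.63% and TTTGGCGC in 0.652%. These are letter matches in fixed windows and say nothing of whether a factor binds there.

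Per length, the 10 mRNAs covered about one order of magnitude. In shRALY cells PRKRA had the highest level at 11.3 ± 0.199 RPKM (SD, n = 2), followed by TARBP2 at 10.4 ± 1.34, DICER1 at 10.1 ± 0.86, XPO5 at 8.32 ± 0.152, DROSHA at 7.0 ± 0.144, AGO2 at 4.42 ± 0.0105, DGCR8 at 4.33 ± 0.0325, AGO4 at 2.47 ± 0.238, AGO1 at 2.27 ± 0.261 and AGO3 at 0.909 ± 0.023. Neighbours in this order whose libraries overlapped were PRKRA with TARBP2, TARBP2 with DICER1, and AGO4 with AGO1. In shControl cells the order began with PRKRA at 10.6 ± 0.23 RPKM, DROSHA at 10.5 ± 0.00587 and XPO5 at 10.3 ± 0.137, then TARBP2 at 8.79 ± 0.0641, AGO2 at 8.49 ± 0.713, DICER1 at 8.12 ± 0.186, DGCR8 at 6.36 ± 0.464, AGO1 at 3.60 ± 0.308, AGO4 at 1.53 ± 0.141 and AGO3 at 1.09 ± 0.0683 (SD, n = 2). There the overlapping neighbours were PRKRA with DROSHA, TARBP2 with AGO2, and AGO2 with DICER1. The order in the upper part depends on the length used: with the longest transcript as the length, DROSHA ranked 4 and AGO2 ranked 7 in shControl cells, in place of 2 and 5. AGO3 ranked 10 in both groups under both lengths.

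Around the 10 genes, mRNAs of proteins that help DROSHA and DGCR8 or bind primary transcripts fell more often than they rose. Of 22 such genes, all tested, 13 fell, 1 rose and 8 did not pass, with a median log2 fold change of -0.44, beside 20.4% lower and 20.6% higher among all tested genes. Without shRALY replicate 1, and likewise without shRALY replicate 2, 9 of the 22 fell. SRSF3, a splicing factor that binds next to the DROSHA cutting site, averaged 159 ± 1.81 CPM in shRALY cells and 319 ± 18.5 CPM in shControl cells (SD, n = 2 each; log2 -1.0, edgeR adjusted p = 4.97e-08). HNRNPA2B1, an hnRNP protein like RALY, averaged 537 ± 9.02 CPM in shRALY cells and 902 ± 82.5 CPM in shControl cells (log2 -0.75, edgeR adjusted p = 2.35e-06). The gene of this list that rose was ADAR, the interferon-inducible RNA editing enzyme that can alter primary transcripts, at 614 ± 46.9 CPM in shRALY cells and 404 ± 46.8 CPM in shControl cells (log2 0.61, edgeR adjusted p = 8.05e-05); it was named after its values were seen.

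For the chaperone machinery that opens Argonaute for loading of the duplex, most mRNAs were lower. Of 12 genes, 9 fell (75.0%, beside 20.4% of all tested genes) and 3 did not pass, with a median log2 fold change of -0.62. HSP90AA1, the stress-inducible HSP90, averaged 750 ± 30.7 CPM in shRALY cells and 2151 ± 229 CPM in shControl cells (log2 -1.52, edgeR adjusted p = 2.44e-11). HSPA8, the constitutive HSP70, averaged 918 ± 16.7 CPM in shRALY cells and 1948 ± 63.9 CPM in shControl cells (log2 -1.09, edgeR adjusted p = 2.52e-09), and the HSP90 cochaperone FKBP4 averaged 98.1 ± 5.71 CPM in shRALY cells and 211 ± 12.9 CPM in shControl cells (log2 -1.10, edgeR adjusted p = 2.19e-08). These are general chaperones of the cell, and Argonaute is one of many clients. Of the 50-base words of the longest transcript, 17.5% for HSP90AA1, 15.4% for HSPA8 and 1.9% for FKBP4 recur in other genes. The handling of multiply matching reads is not given, so the counts of HSP90AA1 and HSPA8 are uncertain.

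The proteins that act after Argonaute moved in both directions. Of 27 silencing effectors, 10 fell, 4 rose and 13 did not pass, with a median log2 fold change of -0.17. Those that passed in either direction are 51.9% of the list, beside 41.0% of all tested genes. Of the 26 effectors with at least 10 CPM in 2 libraries, 10 fell and 4 rose. Among all 10017 genes at that level, 2637 were lower and 2712 higher. The GW182 proteins, which bind Argonaute and recruit deadenylases, were named after their values were seen. TNRC6B had 322 and 407 counts in shRALY cells, against 546 and 669 in shControl cells (log2 -0.72, edgeR adjusted p = 0.00111), and its edgeR adjusted p was 0.0918 when shRALY replicate 1 was left out. TNRC6C had 130 and 127 counts in shRALY cells, against 170 and 232 in shControl cells (log2 -0.64, edgeR adjusted p = 0.0169), and it missed the threshold with DESeq2 and without either shRALY library or shControl replicate 2, at adjusted p-values of 0.0532 to 0.237. TNRC6A, which had the most counts of these genes, had groups that overlapped and did not pass (log2 -0.09, edgeR adjusted p = 0.546). Among decay enzymes, the exonuclease XRN1 averaged 50.6 ± 4.42 CPM in shRALY cells and 31.0 ± 0.859 CPM in shControl cells (log2 0.70, edgeR adjusted p = 8.27e-05). The decapping enzyme DCP2 averaged 58.3 ± 2.41 CPM in shRALY cells and 36.3 ± 6.16 CPM in shControl cells (log2 0.68, edgeR adjusted p = 0.00018). EDC4, the scaffold of the decapping complex, averaged 52.8 ± 1.71 CPM in shRALY cells and 82.9 ± 16.5 CPM in shControl cells (log2 -0.65, edgeR adjusted p = 0.000289), and a gene on the same strand covers 21.2% of its exonic bases, so its counts are uncertain. The count of effectors that fell was 2 without shRALY replicate 1 and 4 without shRALY replicate 2.

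Genes of tailing, trimming and decay of precursors and mature microRNAs numbered 16, of which 14 were tested. Of these, 3 rose, 3 fell and 8 did not pass, with a median log2 fold change of 0.04, so no direction prevailed. The share that passed was 42.9%, near the 41.0% of all tested genes. PNPT1, a mitochondrial exoribonuclease known as an interferon-inducible gene, averaged 177 ± 3.84 CPM in shRALY cells and 73.8 ± 12.5 CPM in shControl cells (log2 1.26, edgeR adjusted p = 1.19e-08). ZC3H12A, which encodes Regnase-1, an endoribonuclease that cuts inflammatory mRNA and precursor hairpins, averaged 25.0 ± 2.76 CPM in shRALY cells and 14.9 ± 1.86 CPM in shControl cells (log2 0.75, edgeR adjusted p = 0.000513). TENT2, a poly(A) polymerase that adds A to mature microRNAs, averaged 66.1 ± 2.24 CPM in shRALY cells and 47.2 ± 3.59 CPM in shControl cells (log2 0.49, edgeR adjusted p = 0.00177), and its edgeR adjusted p was 0.072 when shRALY replicate 1 was left out. The 3 that fell no longer passed without shRALY replicate 1 or without shRALY replicate 2, and 5 rose without shControl replicate 2.

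Of 15 other partners of Argonaute and Dicer, including export factors, 5 rose, 5 fell and 5 did not pass, with a median log2 fold change of 0.07. The share that passed was 66.7%, beside 41.0% of all tested genes. EIF2AK2, which encodes the interferon-inducible kinase PKR, averaged 295 ± 18.0 CPM in shRALY cells and 137 ± 2.77 CPM in shControl cells (log2 1.10, edgeR adjusted p = 1.22e-08). MOV10, an RNA helicase found with Argonaute and known for antiviral activity, averaged 101 ± 10.7 CPM in shRALY cells and 46.3 ± 7.03 CPM in shControl cells (log2 1.12, edgeR adjusted p = 1.65e-07). GEMIN4, a component of the SMN complex that was also found with Argonaute, averaged 70.7 ± 4.16 CPM in shRALY cells and 144 ± 11.4 CPM in shControl cells (log2 -1.03, edgeR adjusted p = 1.11e-07). Without shRALY replicate 1 or without shRALY replicate 2 the list counts were 3 higher and 2 lower in either case.

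**Figure D4:**
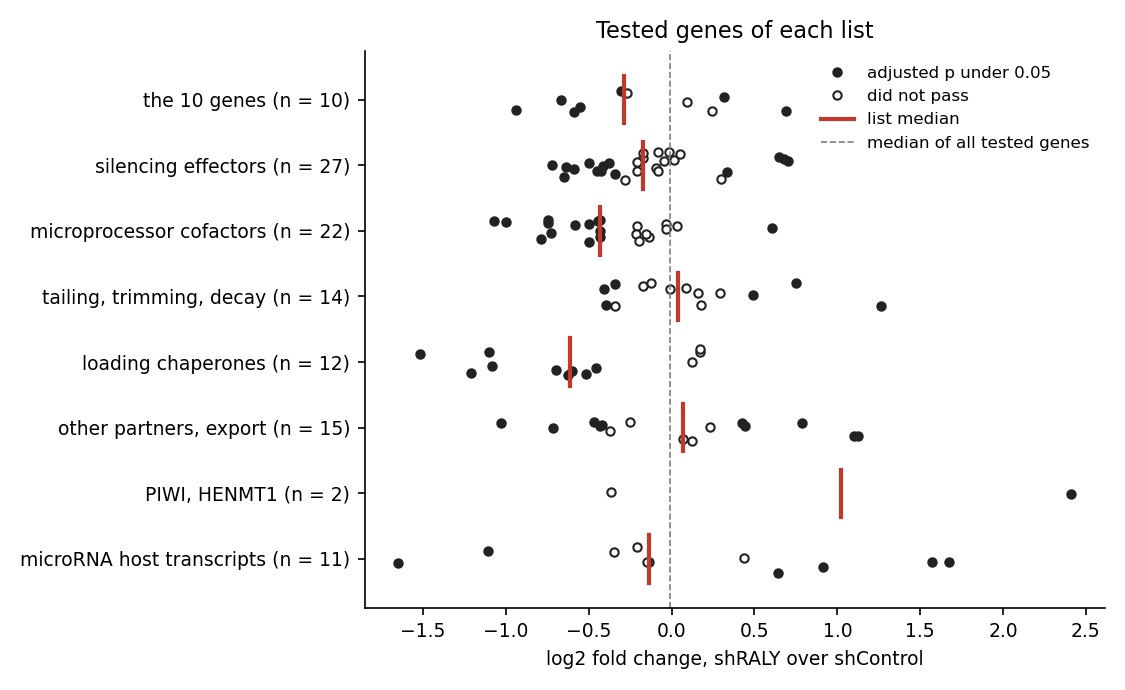
The log2 fold change of every tested gene of the 10 and of the lists around them, shRALY over shControl, with the median of each list; filled points passed an adjusted p of 0.05. The chaperones (median -0.62) and the microprocessor cofactors (median -0.44) lie mostly below 0, whereas tailing and decay genes (median 0.04) lie on both sides.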

How the data were processed

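Each library has its own deposited table of whole-number read counts, listed by Ensembl gene and not normalised, as their unequal totals show. Per the labels' protocols, RNA was selected on poly-T beads. Tools named in the submitters' processing notes are featureCounts 1.5.0-p3, HISAT2 2.0.5 and DESeq2 1.20.0, with hg38 as the build. Strand setting, annotation release and handling of multiply matching reads: not given in the sources used here. Symbols, coordinates and exon lengths came from GENCODE 29, and promoters and mature microRNAs from RefSeq on GRCh38.p14.

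The test of the counts was edgeR 4.0.16's quasi-likelihood test with robust estimation, run in R 4.3.3 on TMM-scaled libraries. It compared shRALY against shControl without covariates and with 2 residual degrees of freedom. The spread of each gene was moderated towards that of all tested genes, so no p-value rests on those 2 alone. The filterByExpr step, with a minimum count of 10 and at least 15 in total, kept 15912 genes with 99.83% of counts and left out 42823. P-values were adjusted by Benjamini-Hochberg over all tested genes, with a threshold of 0.05. The biological coefficient of variation was 9.3%. A floor of 3 counts corresponds to 0.161 to 0.179 CPM and covers counting error only. RPKM divides CPM by the union of exons. Ratios and shares were compared by exact two-sided permutation.

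The 10 genes and the lists around them were chosen with earlier results of these data known. From each list the text names up to 3 genes with the smallest adjusted p, or the most abundant where fewer than 2 passed; ADAR and the TNRC6 genes are exceptions. One gene that the rule names is not reported here. Alternatives were DESeq2 1.42.0, library size alone, RLE size factors, testing every gene with counts, at least 10 CPM in 2 libraries, estimation that was not robust, a replicate block, each library left out, protein-coding genes alone, the longest transcript as length and, chosen after seeing the data, offsets for GC content and transcript length. Both count tests were also run on simulated data in which few genes changed and all genes shared the same relative spread. That run does not check the tests at the unequal spread of these libraries.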

Additional observations from a re-analysis of the deposited data

How the results depend on the processing

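Over 130 values of the 10 log2 fold changes under the alternatives, 124 kept their direction and their side of the threshold, 6 kept the direction but no longer passed (given with XPO5, DICER1 and AGO4) and 0 reversed. The count of the 10 genes that rose was 1 with library size alone and 0 to 2 with 1 library left out, and the count that fell was 4 to 5. Genome-wide, leaving out 1 library gave 2040 to 3559 genes higher and 1897 to 3499 lower. Both of these counts fell when either shRALY library was left out, and both rose when either shControl library was left out. The lone library of a group is then assumed to vary like the others, so the spread comes from the pair of the other group. The chi-square per gene between the libraries of a group was 11.8 for shControl and 4.92 for shRALY. The part of this unequal spread in the calls lost without a shRALY library was not tested. The labels state no pairing of the samples. Deviations from the group means correlated at 0.0988 between replicate 1 of both groups, which with 2 pairs cannot show or exclude a pairing. A replicate block gave 2 of the 10 genes higher and 5 lower, and 3639 genes higher and 3619 lower in all. With library size alone the median log2 fold change of all genes was -0.07. The GC and length correction gave AGO3 -0.12. In the lists around the 10 genes, DESeq2 called 1 host transcript lower, the filter of 10 CPM left 2 host transcripts higher, the GC and length correction gave 5 tailing genes higher, and 1 chaperone was higher without shControl replicate 1 or without shControl replicate 2. The intervals of TARBP2, PRKRA and AGO3 include 0, so with 2 libraries a group a change within them cannot be told from none. The part of depth in this was not tested.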

Other observations

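Transcripts named as hosts of microRNAs moved in both directions. Of 13, 11 were tested, 4 rose, 2 fell and 5 did not pass, with a median log2 fold change of -0.14. Those that passed are 54.5% of the tested ones, beside 41.0% of all tested genes. MIR22HG, the host of miR-22, averaged 74.6 ± 0.478 CPM in shRALY cells and 25.0 ± 3.04 CPM in shControl cells (SD, n = 2 each; log2 1.57, edgeR adjusted p = 5.99e-10). MIR210HG, beside the hypoxia-induced miR-210, had 86 and 43 counts in shRALY cells, against 21 and 19 in shControl cells (log2 1.68, edgeR adjusted p = 0.000836), which became an edgeR adjusted p of 0.075 when shRALY replicate 1 was left out. DLEU2, the host of miR-15a and miR-16-1, had 25 and 27 counts in shRALY cells, against 84 and 81 in shControl cells (log2 -1.65, edgeR adjusted p = 0.000146). Levels of host transcripts are not levels of the microRNAs. The count of hosts that rose was 2 without shRALY replicate 1.

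Of the PIWI genes and HENMT1, the methyltransferase of small RNA ends, 2 of 5 passed the filter. PIWIL2, a germline member of the wider Argonaute family, had 31 and 13 counts in shRALY cells, against 2 and 6 in shControl cells (log2 2.41, edgeR adjusted p = 0.00755). Without shRALY replicate 1 its log2 fold change was 1.76 with an edgeR adjusted p of 0.253, and without shControl replicate 1 it was 1.81 with an edgeR adjusted p of 0.0729. HENMT1 averaged 5.75 ± 1.48 CPM in shRALY cells and 7.44 ± 0.222 CPM in shControl cells and did not pass (log2 -0.36, edgeR adjusted p = 0.218).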
